A study of Mus musculus with 4 samples.

Results

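The interleukin-6 family, its transcription factor STAT3 and the SOCS feedback inhibitors were examined as 10 genes, chosen by symbol, of the 22554 genes named once in each of 2 FPKM tables: the ligands Il6, Lif and Osm, the receptor chains Il6st and Il6ra, Stat3, and the inhibitors Socs1, Socs2, Socs3 and Cish. All 10 were found in both tables. The study compared RAW264.7 cells, a virus-transformed mouse macrophage line, kept alone (mock, 2 libraries) with the same line grown together with CT26, a colon carcinoma line of the mouse (coculture, 2 libraries). The macrophages had been kept in DMEM and the carcinoma cells in RPMI1640, and no other agent or allele is named in the labels. Both lines are single established lines, and the labels give neither the length of the coculture nor the way the macrophages were recovered from it. Each replicate number forms a pair of 1 mock and 1 coculture library with a table of its own. Differences are therefore taken within a pair. Statements across pairs, such as whether the groups overlap, assume a common scale of the 2 tables, which is not stated. So do fits that leave out the pair.

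Most cytokines of this family signal through a receptor that contains gp130, the shared signalling chain encoded by Il6st. Janus kinases bound to the receptor phosphorylate STAT3, which enters the nucleus and acts on target genes, among them Socs3. SOCS proteins and CIS bind the activated receptor or kinase and dampen the signal. In macrophages, interleukin-6 itself is an inflammatory product, induced largely through NF-kappaB, while SOCS3 limits how long gp130 signals last.

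Reference sequence upstream of the inhibitor gene called in coculture, Socs3, and of the name-giving ligand, Il6, is shown because each window holds a match to a motif of a factor tied to this pathway. Both come from RefSeq on GRCm38.p6, which had such a window for 8 of the 10 genes, and run 5′ to 3′ on the gene's strand over the 250 bases before the start that the table uses. Capitals mark the match: in Socs3 (chr11:117969367-117969616, minus strand) the STAT motif TTCNNNGAA, which reads alike on both strands, and in Il6 (chr5:30012864-30013113, plus strand) the kappaB motif, searched on both strands.
Socs3: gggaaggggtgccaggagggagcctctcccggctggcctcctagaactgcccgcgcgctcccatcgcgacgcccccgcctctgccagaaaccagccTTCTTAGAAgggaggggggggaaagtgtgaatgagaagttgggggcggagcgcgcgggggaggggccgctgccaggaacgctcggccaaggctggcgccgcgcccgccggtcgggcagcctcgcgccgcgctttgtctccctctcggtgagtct
Il6: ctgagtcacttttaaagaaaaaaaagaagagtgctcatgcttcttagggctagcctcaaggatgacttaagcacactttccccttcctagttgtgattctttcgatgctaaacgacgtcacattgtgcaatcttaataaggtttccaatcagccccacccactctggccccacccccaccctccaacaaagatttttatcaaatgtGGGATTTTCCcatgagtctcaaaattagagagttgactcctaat
The match TTCTTAGAA begins 154 bases before the table's Socs3 start, which itself lies 180 bases upstream of the GENCODE start of the protein-coding transcript and inside the bounds of the RefSeq gene. The match GGGATTTTCC begins 44 bases before the Il6 start. Of all 32851 windows of this length, 7.02% held a STAT match and 3.90% a kappaB match. Among the 8 members with a window, Socs3 alone held the first and Il6 alone the second. A match describes letters and not a site in use, and the promoters of Osm and Socs2 were not analysed here.

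The libraries held an estimated 12200000 to 16200000 reads, and 9927 to 10084 genes reached 1 FPKM. Of 10 macrophage markers the 4 most abundant were Lyz2, Cd14, Cd68 and Tyrobp. Lyz2 stood at 7088 and 3529 FPKM in the mock libraries and 6585 and 10287 FPKM in the coculture libraries, and Cd14, a receptor chain for bacterial products, at 607 and 354 FPKM and at 1732 and 1149 FPKM, at least 2-fold higher in both pairs (limma adjusted p = 0.0623). Cd68 stood at 693 and 633 FPKM in the mock libraries and 671 and 549 FPKM in the coculture libraries, and Tyrobp at 470.3 and 696 FPKM and at 462 and 469 FPKM. Of the 9 markers tested 0 passed. By an unadjusted limma p under 0.05, 2 were higher and 1 lower, against 5.26% and 9.45% of all genes tested. In both pairs 3 were higher and 3 lower, against 21.5% and 42.2% of all genes tested. Mertk did not exceed 0.028 FPKM. Epithelial markers summed to 0.0982 and 0 FPKM in mock 1 and 2 and to 0.166 and 0.045 FPKM in coculture 1 and 2, and 4 of the 8 (Epcam, Krt18, Cldn3 and Cldn4) were listed at 0 in every library. Mesenchymal markers summed to 2.60 and 1.71 FPKM in the mock libraries and 2.14 and 1.44 FPKM in the coculture libraries, and lymphoid markers to at most 0.132 FPKM. Granulocyte markers summed to 1.33 and 0.162 FPKM in mock and to 2.20 and 2.59 FPKM in coculture, nearly all of it S100a8, which was higher in both pairs (a difference of 1.03 ± 0.34, limma adjusted p = 0.303, although under 0.05 unadjusted), while S100a9, Ly6g and Mpo were listed at 0. The part of the markers that moved in the results was not tested. The labels do not say that the replicates are separate cultures, so the p-values cover the spread of these libraries alone, and that spread could be technical.

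Socs3 was called higher in the coculture libraries. Lif, Osm and Cish lay at least 2-fold higher in both pairs but did not pass the test. The receptor chains Il6ra and Il6st lay lower in both pairs, also without passing. Differences are given as coculture minus mock in log2(FPKM + 1), which understates the change of low genes, and the test is limma with the pair as a block, with p-values adjusted by Benjamini and Hochberg over the 10202 genes that reached 1 FPKM in at least 2 libraries. Of the 10 genes, 7 reached that level and were tested. Lif and Cish did so only through the coculture libraries, so that their direction was set by the filter on low values. Both are among the members counted as higher below. Il6, Socs1 and Socs2 did not reach that level. The test called 1 of the 7 higher (Socs3) and 0 lower, against 0.127% and 0% of all genes tested. All 7 had an unadjusted limma p under 0.05, 5 of them higher and 2 lower, where 5.26% and 9.45% of all genes did. By level alone, with no test, 4 of the 10, all among the 7 tested, were at least 2-fold higher in both pairs. At least 2-fold lower were 0, and the shares of all genes tested were 1.02% and 0.353%. In direction alone, 7 of the 10 were higher and 2 lower in both pairs. Among the 7 tested these were 5 and 2, against 21.5% and 42.2% of all genes tested. The median difference was 1.69 over the 7 tested and -0.07 over all genes tested. Over the 10 genes it was 0.75, 0.23 in pair 1 and 1.09 in pair 2, and 0 over all 22554 genes. The list was drawn up with results of these libraries known, so these counts describe it and do not test it.

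**Figure D1:**
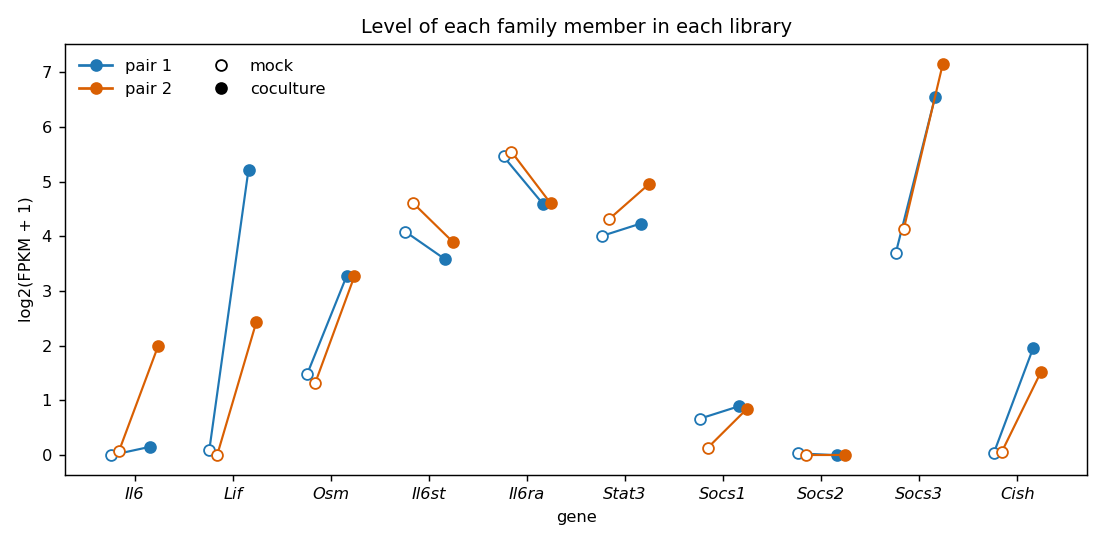
Level of each of the 10 genes on the log2(FPKM + 1) scale in mock (open circles) and coculture (filled circles), with a line for each pair. Socs3, Osm and Cish are higher in coculture by similar amounts in both pairs, Lif by more in pair 1 and Il6 by more in pair 2, and the lines of Il6ra and Il6st slope down in both.

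Among the ligands, Lif, which encodes leukaemia inhibitory factor, showed the widest gap between the groups. It stood at 0.0645 FPKM in mock 1 and was listed at 0 in mock 2, against 36.3 FPKM in coculture 1 and 4.41 FPKM in coculture 2. Both coculture libraries were above both mock libraries, and coculture 1 was far above coculture 2. The difference was 5.13 in pair 1 and 2.44 in pair 2, with a mean of 3.78 ± 0.66 (± is the moderated SE of limma, here and below, n = 2 pairs, limma adjusted p = 0.159). That mean was the 8th highest of all genes tested, and the 2 pairs lay far apart. In the first table, low values are whole multiples of 1 read, and the smallest whole numbers that give the Lif values are 2 reads in mock and 1189 in coculture. The FPKM ratio in that pair was 563, with a 95% Clopper-Pearson interval of 155 to 4651 that covers counting error only. With a pseudocount of 0.1 the mean difference was 6.64 (limma adjusted p = 0.0559). Without coculture 1 it was 2.39 and without coculture 2 it was 5.17, both unblocked.

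Osm, which encodes oncostatin M, a ligand made by activated macrophages, was the most even of the ligands. It stood at 1.81 and 1.496 FPKM in the mock libraries and at 8.66 FPKM in both coculture libraries, so the groups did not overlap. The FPKM ratio was 4.79 in pair 1 and 5.79 in pair 2. In pair 1 the values correspond to at least 53 and 268 reads, which gives a 95% Clopper-Pearson interval of 3.55 to 6.55. The difference of 1.87 ± 0.17 did not pass (limma adjusted p = 0.0623), and it was the 57th highest of the genes tested. After median centring of each library it did (limma adjusted p = 0.0185, difference 1.93).

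Il6 was low in 3 of the 4 libraries and was not tested. It was listed at 0 in mock 1 and stood at 0.113 FPKM in coculture 1, or 1.84 reads per kilobase of gene at the estimated depth. In pair 2 it stood at 0.056 FPKM without CT26 cells and at 3.01 FPKM with them, or 0.883 and 36.8 reads per kilobase. Coculture 2 was thus the single library with a clear Il6 signal, and the difference was 0.15 in pair 1 and 1.92 in pair 2. The order of the pairs was the reverse of that for Lif, and whether the pairs differ was not tested, since each is 1 comparison of 2 libraries.

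The receptor chains were lower in coculture in both pairs, by less than 2-fold. Il6ra, the interleukin-6 binding chain, stood at 43.0 and 45.8 FPKM in the mock libraries, against 23.2 and 23.3 FPKM in the coculture libraries. Mock was higher than coculture by 1.85 times in pair 1 and 1.96 times in pair 2, and the libraries within a group lay close together. The difference of -0.90 ± 0.12 did not pass (limma adjusted p = 0.107). As in any bulk sample, fewer cells that express a gene and less RNA of it per cell cannot be told apart.

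Il6st, the gp130 gene, stood at 16.0 and 23.3 FPKM in the mock libraries, against 11.0 and 13.98 FPKM in the coculture libraries. The groups did not overlap, although mock 1 and coculture 2 lay near each other. The ratio of mock to coculture was 1.45 in pair 1 and 1.67 in pair 2, a difference of -0.60 ± 0.14 (limma adjusted p = 0.215). Stat3, the transcription factor downstream of gp130, differed little. It stood at 15.1 and 19.0 FPKM in the mock libraries, against 17.8 and 29.9 FPKM in the coculture libraries, so that coculture 1 lay between the 2 mock libraries. The pairs differed by 0.23 and 0.63, with a mean of 0.43 ± 0.16 (limma adjusted p = 0.330), and 0.07 without coculture 2, unblocked.

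**Figure D2:**
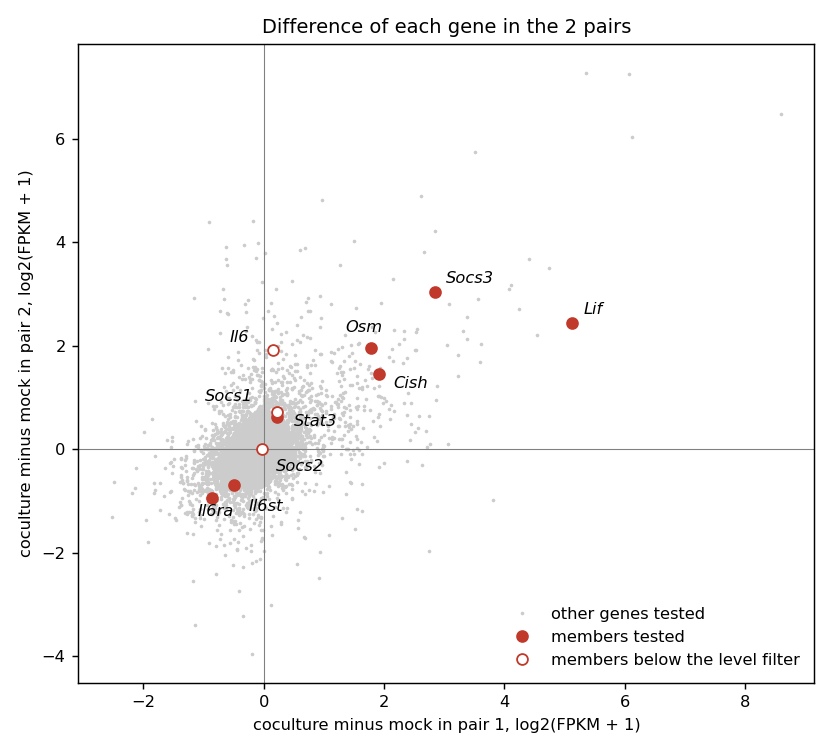
Coculture minus mock in log2(FPKM + 1) for pair 1 (x axis) and pair 2 (y axis), with 1 grey dot for each gene tested, filled red circles for the 7 members tested and open red circles for the 3 below the level filter. Socs3, at 2.85 and 3.03, lies near equal differences in the 2 pairs, Lif lies to the right at 5.13 and 2.44, and Il6ra and Il6st lie in the lower left.

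Socs3, the feedback inhibitor that binds gp130, was the 1 member past the test. It stood at 12.0 and 16.5 FPKM in the mock libraries, against 92.3 and 142 FPKM in the coculture libraries. Both coculture libraries were far above both mock libraries, and the ratio was 7.71 in pair 1 and 8.61 in pair 2. The difference of 2.94 ± 0.12 had a limma adjusted p of 0.0270, was the 19th highest of the genes tested, and had the 2nd smallest p. The call was lost without the replicate block (limma adjusted p = 0.380), with no filter on low values (0.173), with a constant prior variance (0.0901), and without any single library, unblocked (0.589 to 0.989), while the difference stayed between 2.63 and 3.25.

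Cish, which encodes CIS, an inhibitor known as a target of STAT5, was nearly silent in mock. It stood at 0.0301 and 0.042 FPKM in the mock libraries, against 2.88 and 1.87 FPKM in the coculture libraries. In pair 1 the smallest whole numbers behind these values are 1 read in mock and 101 in coculture, a FPKM ratio of 95.6 with a 95% Clopper-Pearson interval of 16.8 to 3812. Both coculture libraries were above both mock libraries. The difference of 1.69 ± 0.24 did not pass (limma adjusted p = 0.123), and it grew to 4.16 with a pseudocount of 0.1 (limma adjusted p = 0.103).

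The other inhibitors were low. Socs1, which inhibits Janus kinases and is known as an interferon-induced brake, stood at 0.587 and 0.095 FPKM in the mock libraries, against 0.859 and 0.794 FPKM in the coculture libraries. In pair 1 this corresponds to at least 11 and 17 reads, a ratio of 1.46 with a 95% Clopper-Pearson interval of 0.646 to 3.45, so a difference was not detectable at this depth in that pair. In pair 2 the values correspond to 1.499 and 9.71 reads per kilobase. Socs2, an inhibitor of growth hormone signalling, was listed at 0 in 3 libraries and stood at 0.0241 FPKM in mock 1.

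The order of the members by FPKM, a unit per length of gene, differed between the groups at its top. In both mock libraries Il6ra was highest, and Il6st, Stat3 and Socs3 followed with ranges that overlapped across the 2 libraries. In both coculture libraries Socs3 was highest by a wide margin. Lif was second in coculture 1 at 36.3 FPKM and sixth in coculture 2 at 4.41 FPKM. Il6ra, Stat3 and Il6st stood between 11.0 and 29.9 FPKM in coculture, with overlapping ranges for Il6ra and Stat3, and Osm, at 8.66 FPKM, was below all 3. Cish, Socs1 and Socs2 stayed under 3 FPKM in every library.

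Among other ligands of the family, Il11, Il27 and Ebi3 were tested and the remaining 4 of 7 were too low. In limma 0 of the 3 passed. All 3 were higher at an unadjusted limma p under 0.05, where 5.26% of all genes tested were. Il11 and Il27 were tested only through the coculture libraries, so that their direction was set by the filter on low values. Il11, which encodes another gp130 cytokine, stood at 0.0670 and 0.095 FPKM in the mock libraries, against 1.05 and 4.60 FPKM in the coculture libraries (limma adjusted p = 0.230). Il27 and Ebi3 encode the 2 chains of interleukin-27. Il27 stood at 0.554 and 0.747 FPKM in the mock libraries, against 5.16 and 2.22 FPKM in the coculture libraries (limma adjusted p = 0.210). Ebi3 stood at 5.12 and 10.8 FPKM in the mock libraries, against 8.58 and 53.3 FPKM in the coculture libraries (limma adjusted p = 0.257). Il31 was listed at 0 in every library. Clcf1 was listed at 0 in both mock libraries and stood at 0.603 and 0.039 FPKM in coculture 1 and 2. Cntf, at 0.162 and 0.474 FPKM in the mock libraries against 0.409 and 0.339 FPKM in the coculture libraries, was higher in pair 1 and lower in pair 2.

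Other receptor chains of the family were scarce. None of 6 reached the level for testing, and Osmr and Il31ra were listed at 0 in every library. Lifr, which encodes a receptor chain for leukaemia inhibitory factor, was chosen after its values were seen. It stood at 0.208 and 1.90 FPKM in the mock libraries, against 0.0239 and 0.103 FPKM in the coculture libraries. It was lower in both pairs, where Lif was higher. Il11ra1 stood at 0.996 and 0.873 FPKM in the mock libraries, against 1.07 and 0.250 FPKM in the coculture libraries, also chosen after its values were seen.

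Of the kinases, other STAT proteins and remaining SOCS genes none passed the test. Of the 4 Janus kinases, 4 were tested and 0 passed in limma (0 at an unadjusted p under 0.05), with a median difference of 0.10, and Jak2 had the largest at 0.36 ± 0.16 (limma adjusted p = 0.384). Of 4 other STAT genes tested 0 passed (also 0 unadjusted), with a median of -0.15. Stat5a differed by -0.10 ± 0.16 and Stat5b by -0.19 ± 0.18 (limma adjusted p = 0.782 and 0.670), and Stat5b was level in pair 2, at 5.389 and 5.386 FPKM. Of Socs4, Socs5, Socs6 and Socs7, 0 passed (also 0 unadjusted), with a median of 0.16, and none differed by 2-fold in either pair. Of 12 other brakes, 0 passed (3 lower at an unadjusted p under 0.05), 6 were lower and 2 higher in both pairs, and the median was -0.12. Of all genes tested 42.2% were lower and 21.5% higher in both, with a median of -0.07, so that by direction and median the brakes lay near the background. By unadjusted p, 3 of the 12 were lower and 0 higher, against 9.45% and 5.26% of all genes tested. The 4 other brakes had opposite signs in the 2 pairs. Widest of these were Usp18 (pair 1: -0.63, pair 2: 3.67) and Ptpre (pair 1: 1.44, pair 2: -0.65), named after their values were seen. Among the 6 lower in both pairs was Pias3, an inhibitor of STAT3, at -0.56 ± 0.18 (limma adjusted p = 0.301). Also among these 6 were Pias1 at -0.39 ± 0.13, Ptpn6, the SHP-1 phosphatase gene, at -0.38 ± 0.12, and Ptprc at -0.37 ± 0.16.

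Genes known as STAT3 targets lay mostly higher in coculture, although 0 of 22 tested passed in limma. At an unadjusted limma p under 0.05, 15 of the 22 were higher and 0 lower, against 5.26% and 9.45% of all genes tested. In both pairs 18 of the 22 were higher and 2 lower, against 21.5% and 42.2% of all genes tested. At least 2-fold higher in both were 7 (1.02% of all), and the median was 0.85, or 1.05 in pair 1 and 0.80 in pair 2. Timp1 and Saa3 were tested only through the coculture libraries, so that their direction was set by the filter on low values. The list was chosen with earlier results of these data known, so these counts describe it and do not test it. Many of these genes also respond to other signals, NF-kappaB among them. The growth regulator Myc stood at 5.16 and 1.03 FPKM in the mock libraries, against 43.3 and 36.9 FPKM in the coculture libraries (limma adjusted p = 0.0707). Pim1, a survival kinase gene, stood at 5.89 and 7.48 FPKM in the mock libraries, against 82.2 and 26.4 FPKM in the coculture libraries (limma adjusted p = 0.161). Il1rn differed by 2.72 ± 0.30 (limma adjusted p = 0.0809) and Timp1 by 2.52 ± 0.38 (limma adjusted p = 0.125). Bcl3, a nuclear cofactor of NF-kappaB, chosen after its values were seen, came nearest to the bound at 2.14 ± 0.16 (limma adjusted p = 0.0543), from 2.34 and 3.77 FPKM to 14.8 and 18.5 FPKM.

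**Figure D3:**
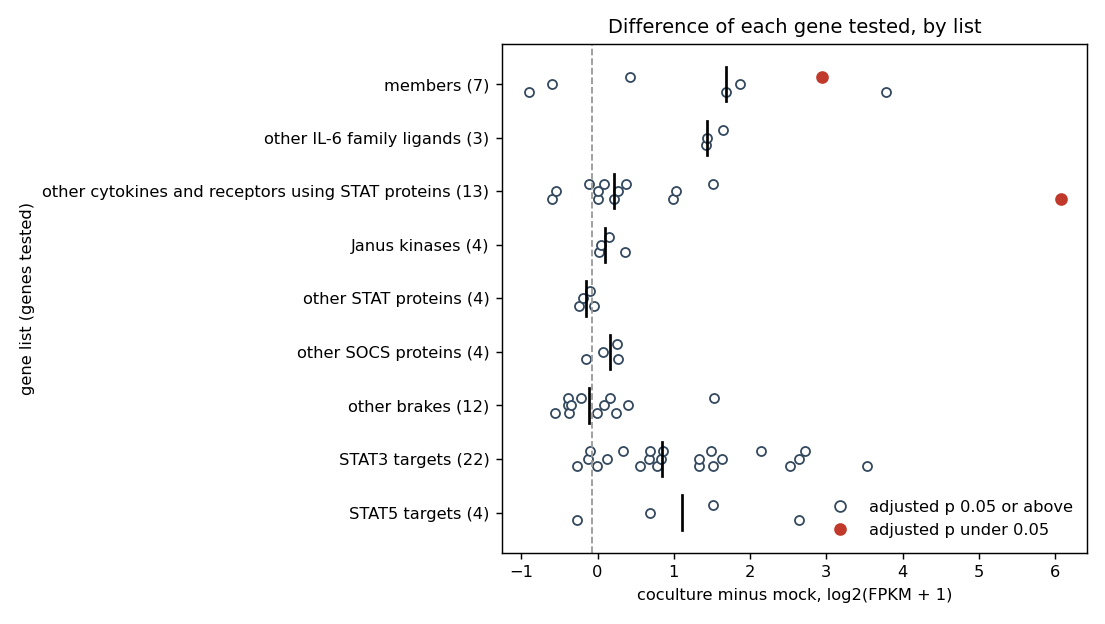
Coculture minus mock in log2(FPKM + 1) for each gene tested, by list, with the number tested in brackets, a black bar at each list's median and a dashed line at the median of all genes tested, -0.07. Filled red circles are the genes with a limma adjusted p under 0.05, Socs3 among the members and Csf3 among other cytokines, and the STAT3 and STAT5 target lists share Pim1, Bcl2l1 and Ccnd1.

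Among known STAT5 targets other than Osm, Cish and Socs2, 4 were tested and 0 passed in limma. At an unadjusted limma p under 0.05, 2 were higher (Pim1 and Bcl2l1), where 5.26% of all genes tested were. Pim1, Bcl2l1 and Ccnd1 are also on the STAT3 list. The remaining gene, Id1, named after its values were seen, differed by -0.15 in pair 1 and 1.53 in pair 2. The median of the 4 was 1.10, or 0.51 in pair 1 and 1.61 in pair 2. Bcl2l1, a survival gene, differed by 1.52 ± 0.20 (limma adjusted p = 0.114), while Ccnd1, the cyclin D1 gene, differed by -0.27 ± 0.11 (limma adjusted p = 0.371).

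Other cytokines and receptors that use STAT proteins included 1 call. Csf3, which encodes a colony-stimulating factor of granulocytes, rose by 6.07 ± 0.15 (limma adjusted p = 0.00771), from 0.0956 and 0 FPKM to 74.9 and 64.4 FPKM. Csf3 and Csf2 were tested only through the coculture libraries, so that their direction was set by the filter on low values. Of the 13 tested, 12 did not pass and the median was 0.22. By an unadjusted limma p under 0.05, 5 of the 13 were higher and 1 lower, against 5.26% and 9.45% of all genes tested. Higher in both pairs were 7 and lower 2, against 21.5% and 42.2% of all genes tested. Csf2, whose product signals through STAT5, was listed at 0 in both mock libraries and stood at 2.57 and 1.27 FPKM in coculture (limma adjusted p = 0.159). Il10ra differed by 1.03 ± 0.33, and Il2rg, the shared gamma chain gene, by 0.99 ± 0.15 (limma adjusted p = 0.125). Ifnar2, an interferon receptor chain gene, differed by -0.60 ± 0.12 (limma adjusted p = 0.188). Il10, another activator of STAT3, chosen after its values were seen, stood at 0.499 and 0.291 FPKM in the mock libraries, against 1.18 and 0.313 FPKM in the coculture libraries, and was not tested.

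Lif, Il6 and Il11 are also made by carcinoma and stromal cells. Beside their higher values in coculture, none of the 8 epithelial markers exceeded 0.0683 FPKM in any library. Krt8 was higher with CT26 cells in both pairs, from 0.0361 to 0.0683 FPKM and from 0 to 0.045 FPKM. Of the 10 mesenchymal markers, pair 1 had 2 listed at 0 without CT26 cells and 4 with them, and pair 2 had 8 and 7. Tpm2 rose from 0 in both pairs, to 0.176 and 0.074 FPKM, while Thy1 fell to 0 from 0.0751 and 0.073 FPKM. Krt8, Tpm2 and Thy1 were named after their values were seen. Within the mesenchymal list only Tagln reached 1 FPKM. It stood at 1.93 and 1.64 FPKM in the mock libraries and 1.59 and 1.34 FPKM in the coculture libraries. How far CT26 cells express these markers was not tested.

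**Figure D4:**
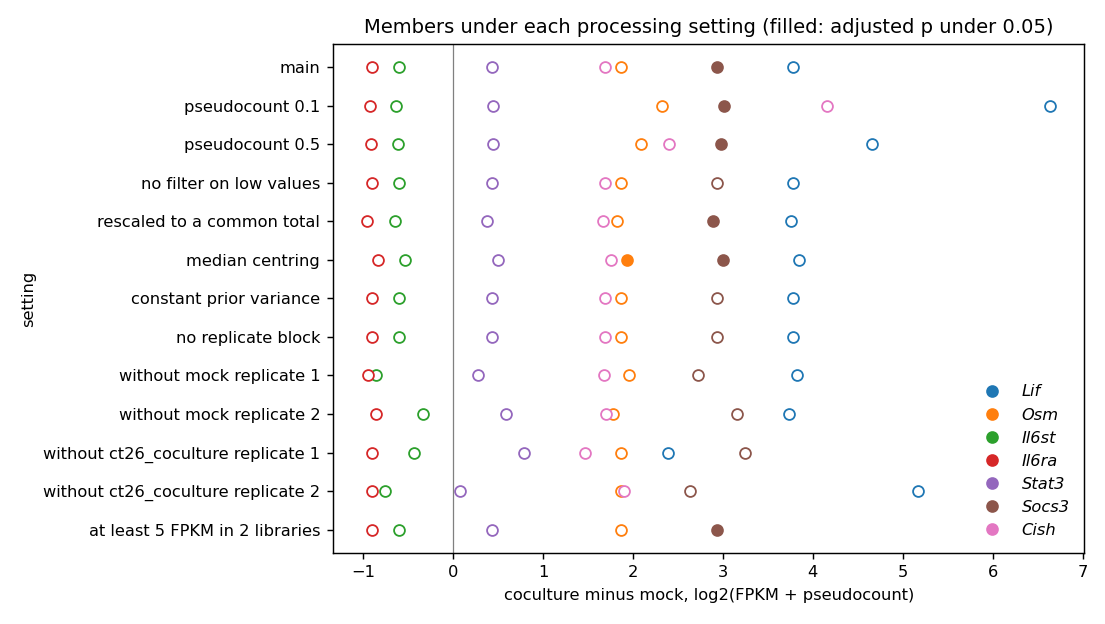
Coculture minus mock for the 7 members tested (x axis, log2 of FPKM plus the pseudocount) under each processing setting (y axis), with filled circles where the limma adjusted p is under 0.05. The circles of each gene stay on their side of 0 in every setting run, those of Socs3 are filled in 6 of 13 settings, and Osm is filled after median centring.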

How the data were processed

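Messenger RNA was sequenced from 4 libraries, 2 mock and 2 coculture. The authors deposited FPKM in 2 tables, 1 for each replicate number. The submitters' processing notes name Trim Galore, Subread, featureCounts and the human build hg38, although the rows carry mouse symbols, and the versions and the annotation are not stated there. Rows with no name (23) or a repeated name (287), all in the table of replicate 1, were left out.

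FPKM were used as deposited, as log2(FPKM + 1), for genes that reached 1 FPKM in 2 or more libraries. They were fitted in limma 3.58.1 (R 4.3.3, trended prior, two-sided) and the pair entered as a block, since a common normalization of the 2 tables is not stated. The fit has 1 residual degree of freedom and 3.43 prior ones, and a gene was called at an adjusted p under 0.05. The libraries of a pair deviated together from their group means (correlation 0.76 across genes), and each pair shares a table. The script was tested on simulated data.

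Depth was estimated from the commonest smallest step of FPKM times GENCODE M21 exon length. In the table of replicate 1, 99.8% of 1731 genes under 0.3 FPKM in mock had a ratio of whole reads (relative error under 1e-06, up to 50 mock reads). Intervals cover counting error only. Coordinates are those of the RefSeq table and not of the deposited files.

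The members and gene lists were chosen with earlier results of these data known. Named genes are all members, called genes of each list and up to 4 further genes per list with the largest mean difference of 1 sign in both pairs, and of marker lists up to 4 of the most abundant. Others are marked as picked once their values were known, or named to show which genes were at or near 0. Some genes of these lists are not reported here. The alternatives were other pseudocounts, filters, scalings and priors, no block, and each library left out.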

Additional observations from a re-analysis of the deposited data

How the results depend on the processing

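The 7 members tested kept the sign of their difference under every alternative run. Of their 82 comparisons with another setting, 74 kept their side of the threshold, 7 lost the Socs3 call and 1 gained Osm. Apart from 5 for Socs3, the 74 were members not called in either setting, so the 74 do not measure how stable a call was. Socs3, the only member called, kept its call in 5 of 12 alternatives. The higher genes called over all genes tested numbered 13, but 22 with a pseudocount of 0.1, 0 with no filter on low values (634 higher and 986 lower by unadjusted p under 0.05), 25 with at least 5 FPKM, 25 after rescaling to a common total, 85 after median centring, 1 with a constant prior variance and 1 with no replicate block. Lower genes called were 0, but 1 with at least 5 FPKM, 1 after rescaling and 18 after centring. The median of all differences was -0.07, -0.12 after rescaling and -0.01 after centring. Members called higher numbered 1, but 2 after centring and 0 with no filter, a constant prior or no replicate block. Leaving out 1 library, unblocked, gave 0 calls, higher or lower, among members and over all genes in each case (176 to 523 at an unadjusted p under 0.05), with the lone library of a group assumed to vary like the rest. Members at least 2-fold higher in both pairs numbered 4, and 2 with at least 5 FPKM, where Lif and Cish were no longer tested. With a bound of 1.5-fold, 1 member, Il6ra, was lower in both. Calls among other cytokines and receptors (1, Csf3) went to 0 with no filter and without any library. Calls among STAT3 targets (0) were 2 with a pseudocount of 0.1, with at least 5 FPKM and after rescaling, and 5 after centring, which also gave 1 among STAT5 targets. With 1 residual degree of freedom, the test rests on the spread borrowed across genes, and the mock values of Il6, Lif, Socs2 and Cish each rest on under 1 read per kilobase.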
